A study of Drosophila melanogaster with 3 samples.

Results

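The regions described here are intronic binding sites of a CG8944-eGFP fusion protein that lie close to a promoter without being part of it. A reproducible peak was included when its summit lay more than 500 bp and at most 2000 bp from the nearest annotated transcription start site (TSS), inside a gene and in no annotated exon. This held for 494 reproducible peaks, or 14.1% of the whole list, and these are called members here. The rest of the list was made up of 1907 promoter peaks, 604 distal intronic peaks, 422 peaks between genes and 84 in exons. All summit positions, genes and exons are on the dm6 build. Within the reproducible list the choice used position alone. That list itself is separated by signal from the weaker pooled entries. The lowest member had a pooled signal of 107 and the highest weaker entry of the zone 106.9. Comparisons with weaker entries therefore also compare stronger with weaker signal.

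Chromatin immunoprecipitation with sequencing was run on whole Drosophila melanogaster embryos of a transgenic line that stably carries CG8944 with a GFP tag at its C terminus. Embryos were 0 to 24 h old and of both sexes, the protein was recovered with an antibody against GFP, and 3 biological replicates form the single group of the study. The sites are therefore those of a tagged transgene product, averaged over all embryonic stages and cell types of the collection. The replicate lists held 30000, 30000 and 27393 entries, the list of pooled replicates 23886, and the reproducible peaks had passed the authors' irreproducible discovery rate filter. No counts are in the lists and the read depth is unknown, so intervals and p-values over peaks cover the sampling of peaks and not the spread between embryo collections.

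First introns of fly genes often hold regulatory DNA, and many genes have several start sites, so that DNA inside an intron can lie upstream of an internal promoter of the same gene. Enhancers are clusters of binding sites for transcription factors that can act on a promoter from a distance, from within introns included. Nucleosome-poor regulatory DNA can differ in base composition from its flanks, and the rest of an intron offers the background against which such a difference is seen.

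The DNA under 8 of the 10 strongest members is given first, since it carries the base composition and the short words described further on. Each window holds the summit and 50 bp on either side, read from the RefSeq genome of the dm6 build on the plus strand, 5′ to 3′, and lies wholly outside exons. Capitals mark matches on either strand to the word CTTAAA or to a motif that differed between members and weaker entries (TATA box, Scalloped, CACCC box, ETS, E2F and Pho, spelled out below). The windows are chr2L:481038-481138 in ush, chr3R:11760994-11761094 in Lk6, chr2L:6612658-6612758 in CG11050, chr2L:3302133-3302233 in CG9663, chrX:4910322-4910422 in CG32772, chrX:5918872-5918972 in CG3726, chr3L:21880456-21880556 in mub and chr3R:5215478-5215578 in cno.
ush: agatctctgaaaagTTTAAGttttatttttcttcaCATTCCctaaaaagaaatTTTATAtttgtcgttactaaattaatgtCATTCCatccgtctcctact
Lk6: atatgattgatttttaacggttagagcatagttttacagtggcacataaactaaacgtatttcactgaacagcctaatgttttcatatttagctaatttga
CG11050: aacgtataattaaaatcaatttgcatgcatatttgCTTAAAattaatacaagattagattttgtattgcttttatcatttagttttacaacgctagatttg
CG9663: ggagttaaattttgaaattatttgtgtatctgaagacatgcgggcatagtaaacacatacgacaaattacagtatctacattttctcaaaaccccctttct
CG32772: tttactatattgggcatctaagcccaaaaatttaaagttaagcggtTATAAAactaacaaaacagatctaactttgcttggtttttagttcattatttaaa
CG3726: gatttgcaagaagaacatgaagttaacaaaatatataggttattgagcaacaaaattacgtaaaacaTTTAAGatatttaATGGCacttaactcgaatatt
mub: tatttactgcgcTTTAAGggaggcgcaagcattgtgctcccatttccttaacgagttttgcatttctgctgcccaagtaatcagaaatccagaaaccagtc
cno: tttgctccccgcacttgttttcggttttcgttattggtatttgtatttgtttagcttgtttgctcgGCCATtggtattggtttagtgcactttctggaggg
The windows of ush, CG11050, CG32772 and CG3726 held 27.7%, 22.8%, 26.7% and 25.7% G or C, whereas those of mub and cno held 44.6% and 42.6%. CTTAAA occurred in those of ush, CG11050, CG3726 and mub, and the windows of Lk6 and CG9663 held none of the marked words.

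A further 3 windows show members that carry words which were less frequent among the members than among weaker entries. These are the strongest members with a CACCC box, in pico (chrX:19847080-19847180), with an E2F word, in CG32767 (chrX:5083735-5083835), and with an ETS word, in NFAT (chrX:13641163-13641263), with the same marking.
pico: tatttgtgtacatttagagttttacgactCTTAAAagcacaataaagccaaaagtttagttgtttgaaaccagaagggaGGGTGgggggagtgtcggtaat
CG32767: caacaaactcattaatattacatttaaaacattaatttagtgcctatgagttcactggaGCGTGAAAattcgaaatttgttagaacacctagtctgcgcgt
NFAT: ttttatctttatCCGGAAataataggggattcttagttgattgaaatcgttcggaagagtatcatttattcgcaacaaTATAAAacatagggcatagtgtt
The signals of these members were 563 for pico, 380 for CG32767 and 581 for NFAT. Each was picked as the strongest with its word, so these signals do not describe other members with it. Over all members the median signal was 155 with a CACCC box and 173 without, and 164 against 173 for the E2F word. For the ETS word it was 449 in 2 members against 172. These differences were not tested. The strongest member of all, in ush, carried the Scalloped word at both of its marked CATTCC positions.

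The strongest members by pooled signal are given here with their replicate values. The pool was made from the same replicates, so this choice itself favours high replicate values. The signal is the authors' value for each peak, on a scale of its own in each list. It is used here only within a list, for ranks, medians and other descriptions. The member in the first intron of ush, which encodes a FOG-family cofactor of GATA factors, had a pooled signal of 3177 and signals of 1058, 1140 and 997 in replicates 1, 2 and 3. Its nearest TSS is that of cbt, a zinc-finger transcription factor gene whose start lies inside ush. The member in Lk6, whose product is a kinase of the translation factor eIF4E, had signals of 722, 758 and 629 in the replicates and ranked 5, 6 and 8. The member in CG11050 had signals of 708, 612 and 560 and was the only one of these in a short intron, of 140 bp in the annotated transcript where it is shortest. The 3 members led the members' order in each replicate, and the ush member lay above the next in all 3.

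Several of the 30 strongest members lay in genes of transcription factors or chromatin proteins. The member in Adf1, a Myb-type transcription factor gene, had signals of 472, 557 and 519 in replicates 1, 2 and 3. The member in HmgZ, which encodes an HMG-box protein, had 426, 465 and 406. The member upstream of an internal start of Trl, the gene of GAGA factor, had 288, 313 and 252. HmgZ ranked 30, 32 and 28 in the replicates' own lists and Trl 71, 63 and 80, so these ranks did not overlap, whereas those of Adf1 (23, 19 and 17) and CG9663 (22, 23 and 21) did. The first member of NFAT, a Rel-family transcription factor gene, had 294, 306 and 252 and ranked 67, 67 and 81, overlapping the ranks of Trl. Members in wde, whose product is a cofactor of the H3K9 methyltransferase Eggless, and in chif, a Dbf4-related gene, had pooled signals of 669 and 640.

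Signalling genes made up another part of the strongest members. Mad, the Smad protein gene of the Dpp pathway, had a member 653 bp upstream of an internal start, with signals of 216, 259 and 202 in replicates 1, 2 and 3. InR, the insulin receptor gene, had a member with 272, 267 and 132, which ranked 76, 94 and 360, so replicate 3 was low for this site. Csk, the C-terminal Src kinase gene, had 230, 279 and 229, and for, the gene of a cGMP-dependent protein kinase, had 231, 252 and 233. The phospholipase C gene norpA, known from phototransduction, had 260, 244 and 258. Star (S), which encodes a trafficking factor of EGFR ligands, had a pooled signal of 626 and cno, which encodes the junction protein Canoe, 970. The cno member ranked 32, 66 and 89 in replicates 1, 2 and 3.

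The remaining genes among the 30 strongest members were mostly metabolic or known by annotation number. Zw, which encodes glucose-6-phosphate dehydrogenase, had a member of signal 752, nearest to the start of an antisense RNA gene. Prps, the phosphoribosyl pyrophosphate synthetase gene, had 583, LPCAT, a lysophospholipid acyltransferase gene, 902, and schlank, the ceramide synthase gene, 547. The genes mub (RNA-binding protein), CG31635, CG9837, Reph, pico and CG4496 held members of signal 1000, 894, 877, 737, 563 and 548, and CG9663, CG32772 and CG3726 members of 1530, 1464 and 1118. Of the 30, 28 lay in a first intron, 17 were downstream of a start of their host gene, 10 were upstream of one inside the gene and 3 were nearest to another gene. All ranked between 1 and 360 in each replicate, and 15 of the 30 were within the first 100 in all 3.

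**Figure D1:**
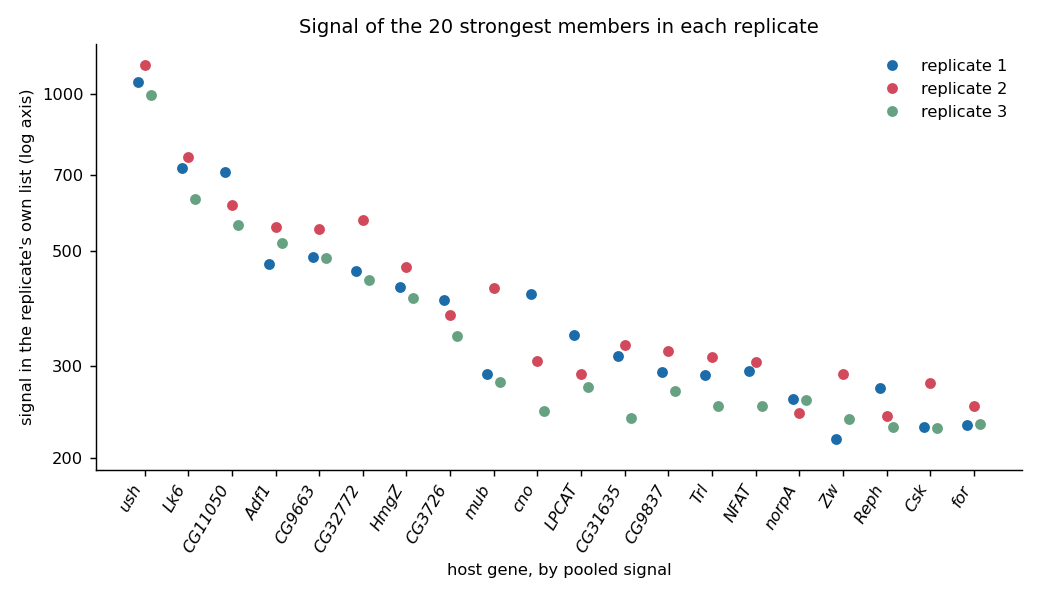
Signal of the 20 members with the highest pooled signal in replicates 1, 2 and 3 (points, log axis), ordered by pooled signal and named by host gene. Each replicate has its own scale, so points are to be read against others of the same colour. The ush member is the highest in each replicate, followed by Lk6 and CG11050.

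Some genes held several members. The 494 members fell into 413 host genes, of which 354 held 1, 45 held 2, 9 held 3, 4 held 4 and 1 held 7. CG1677 held the 7, in an intron of up to 73902 bp, and each was nearest to the start of another gene: CBP, brk, unc-119 or CG42780. The brk gene, which encodes the repressor Brinker of Dpp target genes, lay nearest to members with signals of 300, 876 bp upstream of it, and 122, 1933 bp upstream. The latter had 52.9, 52.5 and 19.8 in replicates 1, 2 and 3, with the lowest rank of 9920 in replicate 3.

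HmgZ, Trl, NFAT and CG10543 held 4 members each. Those of HmgZ had pooled signals of 1292, 238, 152 and 145, and those of Trl 869, 254, 141 and 136. One of the HmgZ members was nearest to the neighbouring HMG-box gene HmgD, 675 bp upstream. NFAT had 845, 581, 329 and 124, and CG10543 385, 321, 135 and 122. In ush, CG9837, CHES-1-like (a forkhead gene), Dys (dystrophin), C3G (a guanine nucleotide exchange factor), Tpr2, Shrm (Shroom), Svil (supervillin) and px, 3 members were found. Neighbouring members can overlap the same replicate entry, which was the case for 26 of 494, so the replicate value of a weak neighbour, such as the Trl member of 141, can be that of the stronger one. Another reproducible summit lay within 500 bp of 40 members, within 1000 bp of 110 and within 2000 bp of 214. Close summits, such as those of Trl at 14759472 and 14759676, count as separate members in the host counts. The tests also treat them as independent. Whether such neighbours are parts of a single site was not tested.

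The zone held a larger share of the reproducible peaks than of the weaker entries of the same pooled list, exonic entries included. The zone held 14.1% of the reproducible peaks and 10.1% of the relaxed entries (2015 of 19963), which are the pooled entries outside every reproducible peak. By Fisher's exact test, two-sided as all tests here, the odds ratio of 1.46 (95% interval 1.31 to 1.62) had p = 1.05e-11. In the strongest entries of each replicate, as many as the reproducible list holds, the zone held 487, 507 and 481 (14.0% ± 0.388, SD, n = 3), against 9.97% ± 1.06 of the other entries, and every replicate's strongest entries lay above its others. Per megabase of annotated zone, 43.2 reproducible peaks were found in 11.4 Mb, compared with 105.1 in promoter windows, 14.6 in introns further from a start, 11.6 between genes and 3.18 in exons outside promoters. Relaxed entries gave 176 per Mb in the zone, 262 in promoter windows, 111 in further introns, 92.7 between genes and 197 in exons. Exons held 26.1% of the relaxed entries but 2.39% of the reproducible peaks. The odds ratio for the zone includes these exonic entries, and no comparison without them was run.

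Members favoured first introns and the part of the zone close to the start. A first intron of some transcript held 403 of 494 members (81.6%, 95% Wilson interval 77.9 to 84.8), whereas 64.5% of all zone bases are in first introns (exact binomial test, p = 8.20e-17). The strongest entries of the replicates gave 82.7% ± 0.761 (SD, n = 3). Between 501 and 1000 bp lay 237 members (48.0% against 38.6% of bases; exact binomial p = 2.47e-05), between 1001 and 1500 bp 152 (30.8% against 33.0%) and between 1501 and 2000 bp 105 (21.3% against 28.4%). The replicates gave 47.8% ± 1.73 for the near part. The median distance was 1027 bp, and the median length of the shortest annotated intron around the summit was 5116 bp.

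The side of the start did not differ past the threshold. Of the members, 306 lay downstream of the nearest TSS (61.9%, 95% interval 57.6 to 66.1, against 64.6% of zone bases; exact binomial p = 0.240), and in the replicates 63.0% ± 1.53. With only the peaks above the median signal the share was 65.6% and the sign of the difference turned. By relation to the gene, 287 members (58.1% against 54.5% of bases) were downstream of a start of their own host gene. A further 132 (26.7% against 16.5%) were upstream of an internal start of that gene, as in Lk6 and Mad, and 75 (15.2% against 29.0%) were nearest to another gene's start, as in ush. No test was run on this division.

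**Figure D2:**
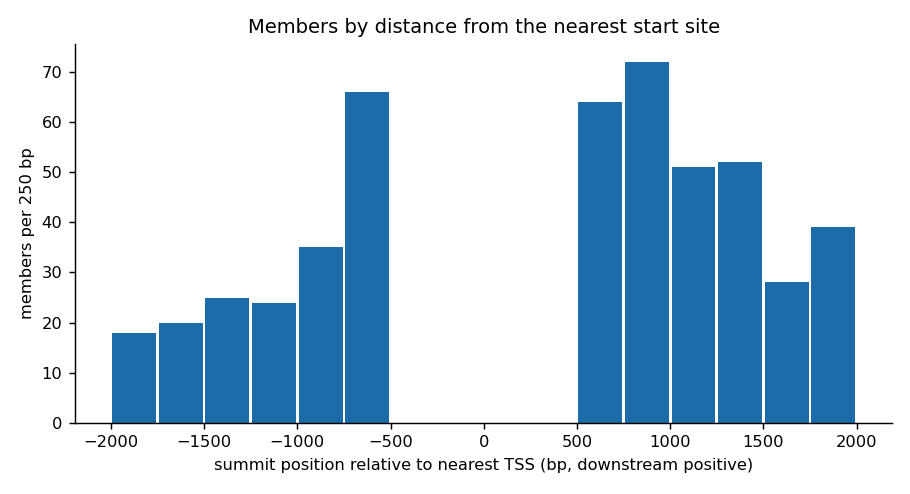
Number of members per 250 bp of distance between summit and nearest TSS, with downstream positions positive. The empty middle is the promoter window that the choice of members leaves out. The bins next to it hold 66 members upstream and 64 downstream, and the outermost ones 18 and 39.

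At the limits of the zone, the members just inside the inner limit were in B4 and CAP (both at 501 bp, signals 175 and 341) and in CG5854 (502 bp, 252). Just outside it were intronic peaks in Mtp (496 bp, 270), CG4615 (497 bp, 361) and ph-p (499 bp, 2009). At the outer limit, CG32264 (1976 bp, 122), px (1984 bp, 116) and Kdm2 (1999 bp, 247) were inside, and bol (2004 bp, 152), lncRNA:CR44320 (2007 bp, 354) and CG43658 (2009 bp, 131) outside. The signals inside and outside overlapped at the inner and at the outer limit.

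The X chromosome held more members than its share of the zone. On X lay 127 members (25.7% against 19.3% of zone bases; exact binomial test with Benjamini-Hochberg adjustment over 6 arms, adjusted p = 0.00289). It was the only 1 of 6 arms called (16.7%), and arm 4 held 1 member (0.202% against 1.13% of bases, adjusted exact binomial p = 0.154). In the replicates the X share was 25.3% ± 1.01 (SD, n = 3). With only the peaks above the median signal it was 26.1% and missed the threshold (adjusted exact binomial p = 0.0527). Distal intronic peaks, those further than 2000 bp from a start, gave 27.3% on X against 19.3% of their bases, and promoter peaks 16.2% against 16.4%.

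Promoter peaks accompanied members more often than they accompanied weaker entries of the same zone. A reproducible summit within 500 bp of the nearest TSS was present for 114 members (23.1%) and for 257 of 2015 relaxed zone entries (12.8%), with an odds ratio of 2.05 and an interval of 1.60 to 2.63 (Fisher's exact p = 3.90e-08). In the replicates' strongest entries it was 22.7% ± 2.44 against 13.0% ± 2.36 for the others. Among the strongest members, those in ush, LPCAT, CG31635, Csk, chif, S, pico and schlank had such a promoter peak, and those in Lk6, CG11050 and Adf1 did not. Any TSS of a gene that holds the summit had a promoter peak for 228 members (46.2%), against 225 of 604 distal intronic peaks (37.3%; odds ratio 1.44, Fisher's exact p = 0.00311) and 647 relaxed zone entries (32.1%; odds ratio 1.81, Fisher's exact p = 8.20e-09). This wider definition was chosen after the data were seen. By definition, no relaxed zone entry overlaps a reproducible promoter peak, whereas no such rule applied to members. The effect of this on the 2.05 and 1.81 was not tested.

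In signal, members did not differ past the threshold from promoter peaks or from distal intronic peaks, the classes tested. Their median pooled signal was 172, against 184 for promoter peaks and 163 for distal intronic peaks. Above the median of all reproducible peaks lay 241 members (48.8%), against 53.2% of promoter peaks (odds ratio 0.837, 95% interval 0.687 to 1.02; Fisher's exact p = 0.0857) and 44.4% of distal intronic peaks (odds ratio 1.19, 95% interval 0.941 to 1.52; Fisher's exact p = 0.162). The median of members minus that of promoter peaks was -1.23, -4.51 and -4.94 signal units in replicates 1, 2 and 3, and minus that of distal intronic peaks it was 4.57, 4.14 and 5.99. The direction was thus the same in all 3 replicates.

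Most members were among the strongest entries of every replicate. This held for 350 (70.9%) in all 3, 98 in 2, 44 in 1 and 2 in none, a count to which the authors' selection for reproducibility contributes. The share was 72.8% for promoter peaks (odds ratio 0.909, 95% interval 0.730 to 1.13; Fisher's exact p = 0.397) and 64.6% for distal intronic peaks (odds ratio 1.33, 95% interval 1.03 to 1.72; Fisher's exact p = 0.0280). The difference from distal intronic peaks missed the threshold when replicate 3 was left out (odds ratio 1.25, Fisher's exact p = 0.123) and when the overlap had to cover 50% of both regions (odds ratio 1.09, Fisher's exact p = 0.501).

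**Figure D3:**
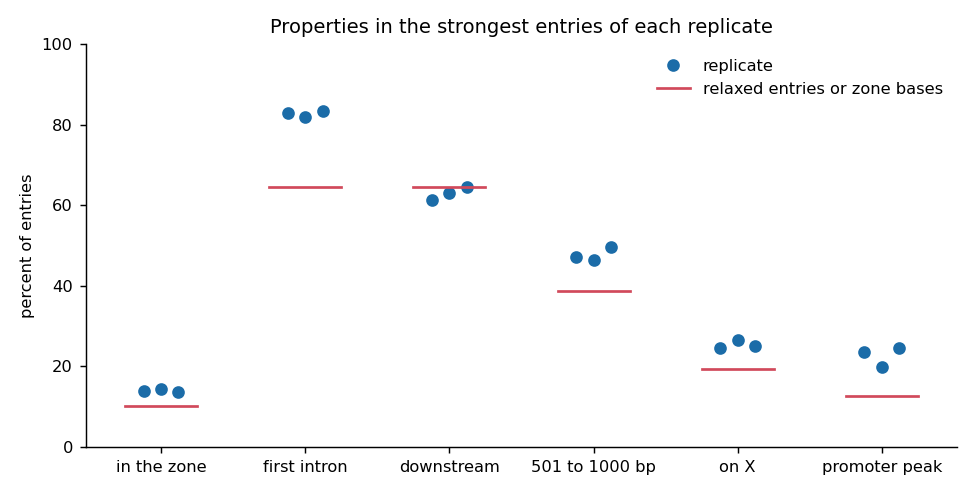
Share of the strongest entries of each replicate that lay in the zone, and, among the zone entries, the shares in first introns, downstream, at 501 to 1000 bp, on X and with a promoter peak (points). Red lines give the share of relaxed entries (in the zone, promoter peak) or of zone bases (other columns). All 3 replicates lie above the line for first introns, the near part, X and the promoter peak, and at or below it for the downstream side.

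The summits of members were poor in G and C. Their windows of 50 bp on either side had a median of 33.7% GC, against 42.6% for relaxed zone entries, and the zone as a whole has 38.7%. A GC content above the median of both sets together was found in 91 members (18.4%) and 1080 relaxed entries (53.6%; odds ratio 0.196, 95% interval 0.153 to 0.249; Fisher's exact p = 6.99e-48). Each replicate's strongest zone entries had a median of 34.7%, against 41.9% ± 1.51 (SD, n = 3) for its other zone entries. Distal intronic peaks had the same median as members, 33.7%, and promoter peaks 37.6%. Around the summit the mean GC of members fell from 42.9% at 200 bp before it to 33.6% at the summit and returned to 43.2% at 200 bp after it, whereas relaxed entries were at 42.8%, 41.6% and 43.1%.

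**Figure D4:**
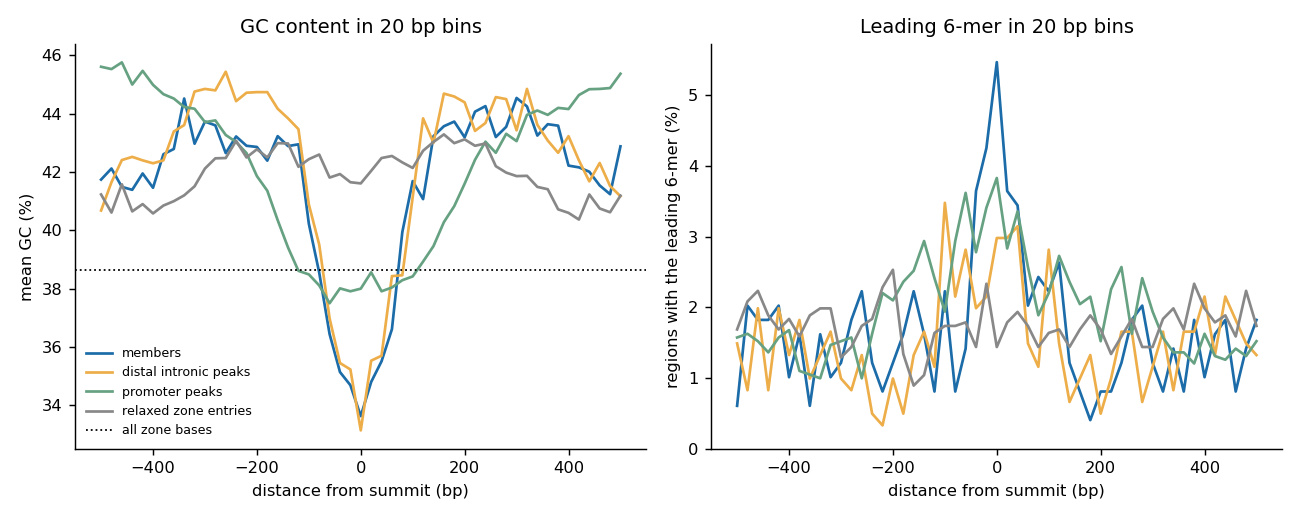
Mean GC content (left, %) and share of regions with the 6-mer of lowest p, CTTAAA (right, %), in bins of 20 bp around the summit for members, distal intronic peaks, promoter peaks and relaxed zone entries; the dotted line is the GC of all zone bases. Members and distal intronic peaks dip to 33.6% and 33.1% GC at the summit, and the 6-mer reaches 5.47% of members there against 1.44% of relaxed entries.

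Short words rich in A and T were more frequent in members than in weaker entries. Of all words of 6 bases, sought on both strands, 258 (12.4%) passed Fisher's exact test after Benjamini-Hochberg adjustment at 0.05, 115 as more frequent and 143 as less frequent. Of the words with no G or C, 30 of 36 were more frequent, and of those with 4 or more G or C none was. The word with the lowest p was CTTAAA, in 94 members (19.0%) and 162 relaxed entries (8.04%; odds ratio 2.69, 95% interval 2.04 to 3.54, adjusted Fisher's exact p = 2.98e-08). In the replicates it was in 15.5% ± 0.471 of the strongest zone entries and 7.91% ± 0.545 of the others. TTAAAA, in 29.2% against 16.3%, overlaps it by 5 bases. Both words were singled out after their values were seen.

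The counts were lower under further comparisons. When members and relaxed entries were compared within strata of 5% GC, an alternative chosen after seeing the data, 0 words passed the exact conditional test with adjustment, and 122 had an unadjusted p under 0.05. CTTAAA then had an odds ratio of 1.68 (unadjusted exact p = 0.000682, adjusted 0.355). Without replicate 1, 2 or 3 the count of words was 167, 144 and 139, with 388, 378 and 382 members in place of 494. Against distal intronic peaks 0 words (0%) passed Fisher's exact test with adjustment, and 81 had an unadjusted p under 0.05.

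Of 36 motifs, 7 (19.4%) differed from the relaxed zone entries by Fisher's exact test with adjustment at 0.05. The TATA box, TATAAA, was the only one found more often in these windows, in 94 members (19.0%) against 10.5% (odds ratio 2.01, 95% interval 1.54 to 2.62, adjusted exact p = 2.56e-05). Less frequent were the site of the Hippo pathway factor Scalloped, GGAATG (1.42% against 5.66%), the KLF-type box CACCC (7.29% against 13.1%), and the ETS site CCGGAA (0.405% against 2.68%). The E2F site TTTNNCGC (3.64% against 7.30%) and the site of the Polycomb recruiter Pho, GCCAT (13.8% against 19.6%), were also less frequent. The GAGA repeat was in 0 of 494 members, which allows a share of up to 0.607%, against 1.19%. With windows of 100 bp on either side 10 motifs passed, 4 of them as more frequent.

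Within the same strata of GC only the Scalloped site passed (odds ratio 0.265, adjusted exact p = 0.00317), 1 of 36. Of the other called motifs, the ETS site kept a low odds ratio of 0.214 (adjusted exact p = 0.370) and the E2F site one of 0.598 (adjusted exact p = 0.452). The TATA box had 1.13 (adjusted exact p = 1) and the CACCC box 0.970 (adjusted exact p = 1). The Pho site had 1.025 and was not called, so its lower share was not seen within strata. The GAGA repeat, in 0 members, was not called either (adjusted exact p = 0.775). Without replicate 3 the unstratified count fell to 3 of 36. In the replicates' strongest zone entries the Scalloped site was in 2.23% ± 0.361 (SD, n = 3), against 5.32% ± 0.580 of the others, and the TATA box in 16.2% ± 1.34 against 11.4% ± 0.701. The CACCC box was in 7.93% ± 0.315 against 13.3% ± 0.163, the ETS site in 1.02% ± 0.229 against 2.50% ± 0.476 and the Pho site in 13.2% ± 0.865 against 19.7% ± 0.954. The GAGA repeat was in 1.03%, 0.789% and 0.416% of the strongest zone entries of replicates 1, 2 and 3 against 0.889%, 0.930% and 0.885% of the others, so replicate 1 ran the other way. A match is the presence of letters in the window and no measure of binding by these factors.

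**Figure D5:**
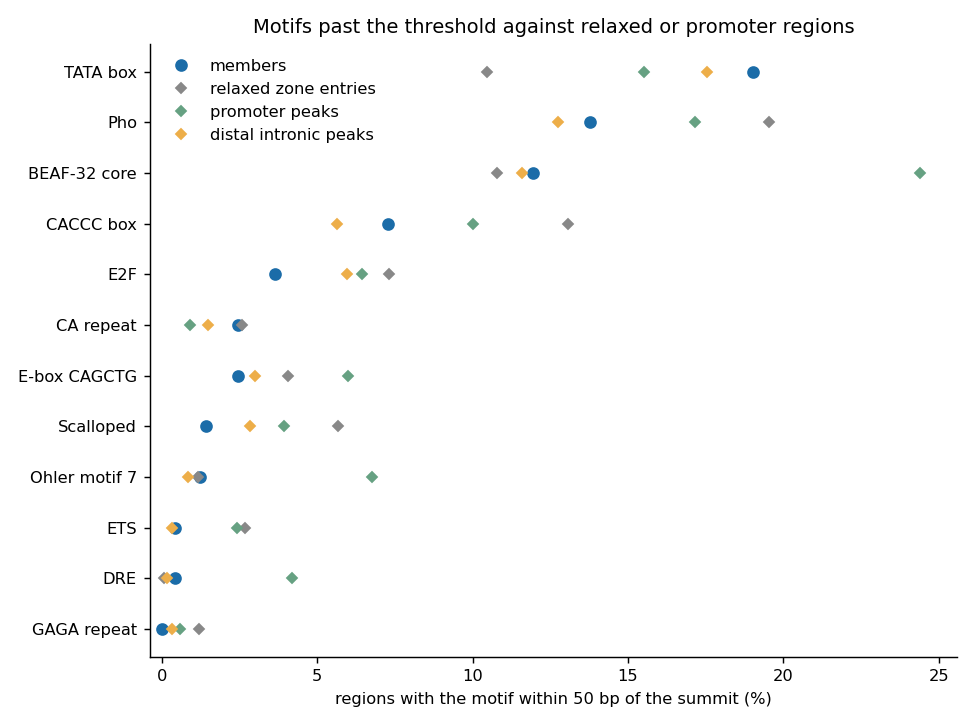
Share of members, relaxed zone entries, promoter peaks and distal intronic peaks with each motif within 50 bp of the summit (%), for the motifs past the threshold against relaxed entries or promoter peaks. The BEAF-32 core is at 11.9% in members and 24.4% in promoter peaks, and the TATA box at 19.0% in members and 10.5% in relaxed entries.

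Compared with promoter peaks, members held the BEAF-32 core, the DNA replication-related element and Ohler motif 7 less often. Of 36 motifs 7 (19.4%) passed, 6 of them as less frequent in members. The BEAF-32 core, CGATA, named for an insulator protein, was in 11.9% of members against 24.4% (odds ratio 0.421, 95% interval 0.314 to 0.563, adjusted Fisher's exact p = 1.81e-08). Ohler motif 7, a core promoter motif, was in 1.22% against 6.77%, and the DNA replication-related element TATCGATA, bound by Dref and overlapping CGATA, in 0.405% against 4.20%. The E-box CAGCTG (2.43% against 5.98%), the Scalloped site (3.93% in promoter peaks) and the ETS site (2.41%) were the others. The CA repeat was more frequent, in 2.43% against 0.891% (adjusted Fisher's exact p = 0.0493). No motif was called as more frequent with protein-coding starts, windows of 25 bp or the stricter peak threshold, or without replicate 1 or 3, so this call was lost there. Without replicate 1 the count was 3 of 36 and without replicate 3 it was 4. Members lie outside promoter windows by definition, and their median GC was 33.7% against 37.6% in promoter peaks. This comparison was not run within strata of GC.

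No motif separated members from the intronic peaks further than 2000 bp from a start past the threshold. Of 36 motifs 0 passed (0%; Fisher's exact test with adjustment), and 1 had an unadjusted p under 0.05, the CRE site TGACGT (2.23% against 0.497%, adjusted exact p = 0.495). An adjusted p that misses the threshold does not show that the sets are alike.

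The developmental genes that hold members were counted in gene lists, for which no test was run. Of 9428 genes with zone bases, 448 (4.75%) held a member, counting every gene around the summit, at 44.6 members per megabase of zone. A member can thus count for a listed gene while another gene around the summit is its host gene. Genes with long introns have more zone, so this density is given beside each share. Of the EGFR pathway, which passes a growth signal through Ras, 7 of 19 genes held a member (141 per Mb). Those of highest signal were drk, the Grb2 adaptor (signal 294), Raf (240), Egfr itself (172), the ETS repressor aop (145) and the feedback inhibitor sty (138). These members of drk, Raf and Egfr were nearest to starts of other genes: mars, lncRNA:CR33218 and CG30286.

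Members were also found in genes of other pathways. In the BMP and activin pathway 4 of 14 genes did (125 per Mb), with Mad (681) and the type II receptor wit (360) ahead of shn (208) and the receptor tkv (138). In the Hedgehog pathway it was 3 of 10 (206 per Mb), the co-receptor boi (242), the receptor ptc (208) and ttv (140), which makes heparan sulfate. The ttv member of 140 had LamC as its host gene and lay downstream of a LamC start. Of the ecdysone cascade 4 of 14 held one (47.2 per Mb), EcR, the hormone receptor (495), Hr4 (328), the early gene br (250) and Hr3 (122). The br member had Mur2B as its host gene and nearest start, and the Hr3 member also had another host gene. The members named for wit, ptc, EcR and Hr4 were nearest to starts of other genes: CG32259, lncRNA:CR44281, tRNA:Asn-GTT-1-1 and CR46447. Lk6, InR and the hypoxia factor sima (394) were the holders among 18 genes of the insulin and TOR pathway (81.9 per Mb).

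The Wnt, Notch, JAK/STAT and Hippo pathways gave 3 of 16, 2 of 17, 2 of 10 and 1 of 19 genes, at 52.9, 42.8, 97.3 and 25.2 members per Mb. The holders with the highest signal were Wnt4 (174) and sgg, the GSK-3 kinase (170), for Wnt, and neur (163) and numb (148) for Notch. Socs36E (189) and Ptp61F (124) were those of JAK/STAT, and crb, a polarity protein gene (189), that of Hippo. The Ptp61F member of 124 had ru as its host gene and nearest start. Of RNA-binding and splicing regulators 5 of 21 held a member (49.8 per Mb), led by elav (331) and pum (274), and of neuronal guidance genes 4 of 21 (44.6 per Mb), led by trio (231) and NetB (229). The pum member of 274 had lncRNA:CR45196 as its host gene and nearest start. The members of Wnt4, trio and NetB were nearest to starts of other genes: CG31909, CG9205 and hog. Per megabase, the Notch, guidance, ecdysone, RNA-binding and Wnt lists thus lay near the value over all genes. Their densities were 42.8, 44.6, 47.2, 49.8 and 52.9, against 44.6 over all genes.

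Among lists of chromatin and promoter proteins, the 4 members in Trl counted in 3 lists. Trl and kis (117) held members among 18 trithorax and Brahma genes (215 per Mb), and ph-p (276) did among 16 Polycomb genes (97.7 per Mb). Trl held all those among 11 insulator protein genes (437 per Mb), and Adf1 and Trl those among 10 genes of core-promoter binding factors (397 per Mb). These densities rest on 1 or 2 genes each, and the close summits of Trl count separately in them. The kis members were nearest to the starts of lncRNA:CR44222 and lncRNA:CR44218. Of muscle genes 1 of 16 held any (rols, 164; 28.8 per Mb), of circadian clock genes 1 of 10 (sgg; 25.5 per Mb) and of autophagy genes 1 of 12 (Atg1, 107; 91.5 per Mb). No member was found in 10 Hox genes, 18 cell cycle regulators, 7 KLF and Sp genes and 12 genes of cytoplasmic ribosomal proteins with zone bases. The ribosomal protein genes had 0.00272 Mb of zone in all, the KLF and Sp genes 0.0114 Mb, the cell cycle genes 0.0246 Mb and the Hox genes 0.0329 Mb. At the 44.6 members per Mb over all genes, zones this small would hold few members. Their absence is therefore no result about these lists. The tagged gene CG8944 itself had no reproducible peak within its locus and the 500 bp around it, and 3 relaxed entries there had signals of up to 79.1.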

How the data were processed

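The data were dm6 narrowPeak lists of 3 replicates, of their pool and of the reproducible set of 3511 peaks. The deposited signal value of each peak is the authors', on a scale that is not stated, and served for ranks and descriptions inside a single list. The aligner, the caller, any version and the reproducibility cutoff used: each is not given in the sources used here. Per the labels, chromatin was sonicated to 200 to 800 bp. A control alignment was not used here.

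Transcripts and exons came from Ensembl BDGP6.54, release 115, without transposable elements (18164 genes), and sequence from RefSeq. Each summit was assigned to the zone by distance to the nearest TSS. The host gene is the gene of the nearest TSS where it holds the summit, otherwise the longest protein-coding gene around it. A replicate value is that of the strongest overlapping entry. The relaxed entries are the pooled entries that overlap no reproducible peak. Zone bases are the bases that meet the same position rule.

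Two-sided tests of shares were Fisher's exact test, with 95% Woolf intervals, or exact binomial tests against zone bases with Wilson intervals. Motif, 6-mer and arm families were adjusted by Benjamini-Hochberg at 0.05. Sequence windows reached 50 bp to each side of a summit. The families held 36 motifs and 2080 words of 6 bases. The spread over replicates came from the 3511 entries of highest signal in each. Alternatives were a stricter peak threshold, protein-coding starts, an outer limit of 1500 bp, stronger relaxed entries, windows of 25 and 100 bp, other overlap and promoter rules, strata of GC, and leaving out each replicate, where peaks had to overlap a strong entry of both others. Named genes are hosts of the 30 strongest members, hosts of 3 or more, the list holders with the highest signal (up to 5 a list, where the rule was 2 and the others were added after their values were seen) and peaks next to the limits. Members, gene lists and motifs were chosen with earlier results of these data known. Some results of the gene lists are not reported here. The tests were checked on simulated data. Python 3.11.15, numpy 2.4.6, pandas 2.3.3 and scipy 1.17.1 were used.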

Additional observations from a re-analysis of the deposited data

How the results depend on the processing

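The shares in the zone, in first introns, in the near part and with a promoter peak, and the GC difference, kept direction and call under every alternative run for them. In direction 2 values turned, neither past the threshold: the downstream share (65.6%) with the stricter peak threshold, and the odds ratio for strong entries in all replicates against promoter peaks (1.02) with an overlap of 50%. The X share was 26.1% and no longer called with the stricter threshold. Against distal intronic peaks the odds ratio for strong entries was no longer called with an overlap of 50% (1.09), protein-coding starts (1.29) or the stricter threshold (1.59), and ranged from 1.25 to 1.40 without 1 replicate. Motif counts against relaxed entries were 2 with windows of 25 bp, 10 with 100 bp, 4 with the stricter threshold, 3 with the stronger relaxed entries, 1 within GC strata, 2 with the 1500 bp limit, and 3 to 6 without 1 replicate. Against promoter peaks they were 4 with windows of 25 bp, 2 with the stricter threshold and 3 to 5 without 1 replicate. Counts of 6-mers were 420 with windows of 100 bp, 13 with 25 bp, 42 with the stricter threshold, 106 with the stronger relaxed entries, 118 with the 1500 bp limit, 0 within GC strata and 139 to 167 without 1 replicate. Fewer members enter the stricter and leave-out settings; other causes were not tested. The signal comparison was not run with the stricter threshold, which selects on signal. Depth limits are unknown, since no counts were used.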
